A study of Mus musculus with 7 samples.

Results

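The sites described here are PU.1 peaks of myeloid precursors (MPs) that no PU.1 peak list of RANKL-treated cells holds. A site was taken when its peak in the MP list had a score of at least 17, lay on chromosomes 1 to 19 or X, and shared not 1 bp with any PU.1 peak after 36 h or 72 h of RANKL. The sites were thus selected on PU.1 scores and peak positions measured in these libraries. Of 51257 MP peaks that reached this score on these chromosomes, 2365 met the rule, or 4.61% (95% CI 4.44 to 4.8). They are called lost sites below, and lost means absent from both later lists. The 43271 MP peaks that overlapped a peak at both later times are called kept, another 1621 were listed again at 36 h alone and 4000 at 72 h alone. Because the 3 PU.1 lists chose the sites, their scores and their absence later are given as a description, without a test.

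PU.1 is an ETS-family transcription factor that myeloid cells need to form, and it stays present as precursors become osteoclasts (OCs). It binds DNA around a GGAA core, most strongly in purine-rich sites such as GAGGAAGT. At a second kind of site, the ETS-IRF composite element, PU.1 recruits an interferon regulatory factor such as IRF8 or IRF4, and the GGAA core is followed closely by GAAA.

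PU.1 and MITF, a basic helix-loop-helix factor that partners with PU.1 in OCs, were mapped by chromatin immunoprecipitation and sequencing (ChIP-Seq) in bone marrow myeloid cells of C57BLACK6 mice aged 4 to 6 weeks. MPs had received CSF1 at 50 ng/ml for 3 days. The later cells received CSF1 at the same dose with RANKL at 100 ng/ml, for 36 h or for 72 h (the OC sample). Every condition had 1 library, and an IgG control came from MPs alone, so that no difference between times has a replicate check. No genotype other than the strain is given in the labels, and the marrow cells were not sorted further as far as the labels state.

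A peak score is the number of sequence tags in the peak, scaled to a common library size. One tag was worth 1.706 score units in the MP library, 1.478 at 36 h and 1.468 at 72 h. If the usual scale of the peak caller was used, the libraries held 5860000, 6770000 and 6810000 tags. The lowest peak listed had 6 tags in MPs and 7 tags at each later time, which is a score of 10.2 in MPs and 10.3 later. The MP library was thus the shallowest of the PU.1 libraries. The MP, 36 h and 72 h lists held 76243, 71941 and 77072 peaks. Peaks were 150 bp wide between their start and end in MPs and at 72 h, and 190 bp wide at 36 h.

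The sequences of some of the highest lost sites are shown first, since they show what a lost peak can look like in the genome. Each spans the whole listed peak of 151 bases, read from mm9 on the plus strand, 5′ to 3′. Capitals mark a match, on either strand, to the PU.1 motif GAGGAAGT or to the ETS-IRF motif, which was searched as GGAA, 1 base of any kind and TGAAA. For 3 of the 12 highest lost sites the nearest PU.1 peak of the 72 h list is given under the MP peak.
Tmco5, MP peak, chr2:116814813-116814963, plus strand: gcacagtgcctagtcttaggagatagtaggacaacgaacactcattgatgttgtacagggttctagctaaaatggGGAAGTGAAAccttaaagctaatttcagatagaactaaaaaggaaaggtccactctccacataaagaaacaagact
Tmco5, 72 h peak, chr2:116815139-116815289, plus strand: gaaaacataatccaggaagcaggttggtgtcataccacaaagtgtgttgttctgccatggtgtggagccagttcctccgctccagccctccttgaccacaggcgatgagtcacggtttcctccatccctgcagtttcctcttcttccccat
Mapkapk2, MP peak, chr1:133007105-133007255, plus strand: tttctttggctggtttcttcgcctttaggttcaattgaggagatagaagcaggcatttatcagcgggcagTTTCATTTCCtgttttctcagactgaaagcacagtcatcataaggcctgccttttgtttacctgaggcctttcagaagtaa
Mapkapk2, 72 h peak, chr1:133007302-133007452, plus strand: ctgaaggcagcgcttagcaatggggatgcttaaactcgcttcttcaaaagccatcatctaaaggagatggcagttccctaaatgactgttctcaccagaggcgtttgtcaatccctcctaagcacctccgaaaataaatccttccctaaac
Ccr2, MP peak, chr9:123982991-123983141, plus strand: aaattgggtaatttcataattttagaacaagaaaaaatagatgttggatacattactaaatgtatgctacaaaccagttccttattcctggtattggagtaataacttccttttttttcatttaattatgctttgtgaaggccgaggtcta
Ccr2, 72 h peak, chr9:123983241-123983391, plus strand: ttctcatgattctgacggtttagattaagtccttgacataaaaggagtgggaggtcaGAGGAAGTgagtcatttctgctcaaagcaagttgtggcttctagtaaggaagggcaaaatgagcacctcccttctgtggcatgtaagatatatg
The Tmco5 and Mapkapk2 peaks of MPs each held an ETS-IRF match, and the neighbouring 72 h peaks held neither motif. At Ccr2 the order was the other way, with a GAGGAAGT match in the 72 h peak and neither motif in the MP peak. The 3 pairs are examples and not the 3 highest. Of the 12 highest MP peaks, those near Tmco5, Mapkapk2, Mthfd1l and Ext1 held an ETS-IRF match, and the others held none.

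Another set, chosen after its values had been seen, shows lost sites with an ETS-IRF match and with no later PU.1 center within the smallest spacing of the lists.
Atp6v0a1, MP peak, chr11:100870041-100870191, plus strand: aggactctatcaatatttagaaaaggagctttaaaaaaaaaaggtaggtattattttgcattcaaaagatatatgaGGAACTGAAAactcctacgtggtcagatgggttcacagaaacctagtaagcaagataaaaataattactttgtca
Cd53, MP peak, chr3:106558970-106559120, plus strand: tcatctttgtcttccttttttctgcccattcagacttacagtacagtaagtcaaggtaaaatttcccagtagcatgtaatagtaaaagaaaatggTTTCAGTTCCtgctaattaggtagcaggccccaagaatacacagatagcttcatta
Neil3, MP peak, chr8:54792594-54792744, plus strand: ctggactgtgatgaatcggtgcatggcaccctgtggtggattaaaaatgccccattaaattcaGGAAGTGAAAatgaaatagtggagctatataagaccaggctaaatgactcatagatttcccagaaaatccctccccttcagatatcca
The element is on the plus strand at Atp6v0a1 and Neil3 and on the minus strand at Cd53.

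Scores of the lost sites ran from 17.1 to 218.3 with a median of 20.5, which is 12 tags. The middle of the distribution, from the lower to the upper quartile, was 18.8 to 27.3. Kept sites had a median score of 42.6 in MPs and reached 414.5. At the threshold of the rule, 553 of the 3796 MP peaks with a score of 17.1 (10 tags) were lost, and 877 of the 4463 peaks just under it, with a score of 15.4 (9 tags), would have been. The more tags the MP peak had, the lower was the share lost. It was 49.1% at 6 tags, 13.2% (914 of 6920) at 10 to 11 tags, 9.04% (686 of 7589) at 12 to 14, 4.91% (415 of 8445) at 15 to 19 and 1.24% (350 of 28303) at 20 or more. Among the 9779 peaks with at least 50 tags, 23 were lost, or 0.235% (95% CI 0.157 to 0.353). Of the lost sites, 1163 had a score of at least 2 times the lowest score of the later lists, 417 of at least 3 times and 84 of at least 5 times. A site under these limits could miss a list by a few tags, so at this depth its absence does not show that PU.1 had left it. In bulk samples, fewer cells of a type and less binding per cell cannot be told apart.

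**Figure D1:**
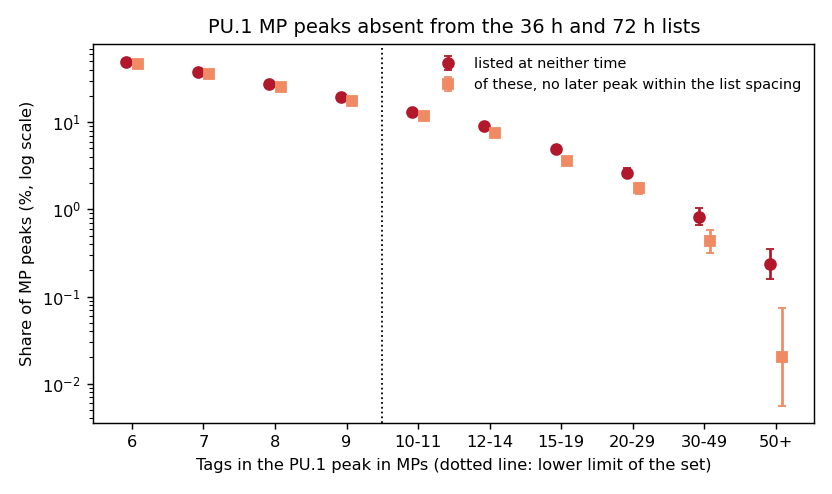
Share of MP peaks absent from both later PU.1 lists (y axis, percent, log scale) by the tags in the MP peak (x axis), with 95% Wilson intervals. Circles are all such peaks, squares those with no later peak within the list spacing, and the share falls from 49.1% at 6 tags to 0.235% at 50 tags or more.

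A part of the lost sites lay beside a later peak rather than far from one. In no list did 2 peak centers come closer than 370 bp (MP and 72 h) or 444 bp (36 h). A site whose center was nearer than this to a later peak could therefore not have had an entry of its own in that list. This held for 465 lost sites, or 19.7%, of which 179 were this close to a 36 h peak alone, 55 to a 72 h peak alone and 231 to both. For 212 of these 231 sites the 36 h and the 72 h centers lay within 50 bp of each other, with a median separation of 15 bp over the 231. The later neighbour was about as high as the MP peak had been. The median ratio of its score to the MP score was 1.03 at 36 h (410 sites) and 0.961 at 72 h (286 sites). Of the 286 neighbours at 72 h, 270 overlapped no peak of the MP list. The 370 bp spacing of the MP list barred a second MP entry at the center of such a neighbour. This count thus follows in large part from how the pairs were chosen. It cannot tell whether these positions were already bound in MPs.

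The other 1900 lost sites, 3.71% of the MP peaks at the score of the rule, had no later peak within this distance and are called isolated. Their scores ran from 17.1 to 90.4 with a median of 20.5, while the sites with a close neighbour had a median of 25.6 and reached 218.3. The share of lost sites with a close neighbour was 10.6% at 10 to 11 tags, 16.8% at 12 to 14, 26.7% at 15 to 19 and 40.6% at 20 or more. With at least 50 tags it was 91.3%, which is 21 of 23, and 2 isolated sites remained. A later center lay within 1 kb of 919 lost sites (38.9%) and within 10 kb of 2004 (84.7%). The remaining 361 had no later PU.1 peak within 10 kb, and 24 had none within 100 kb.

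**Figure D2:**
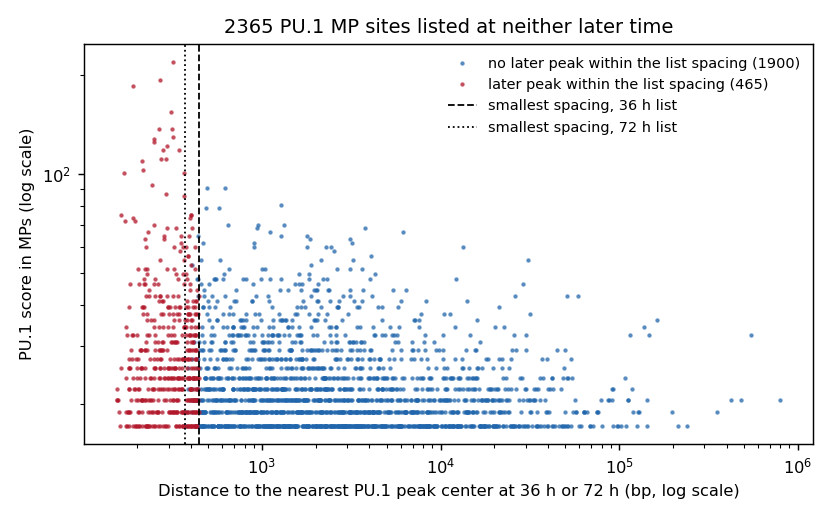
MP score of each of the 2365 lost sites (y axis, log scale) against the distance from its center to the nearest PU.1 center at 36 h or 72 h (x axis, bp, log scale), 1 point per site. The vertical lines are the smallest spacing of the later lists, 444 bp and 370 bp, and every point above a score of 90.4 lies below 444 bp.

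All 12 lost sites with the highest scores belonged to the group with a close neighbour. Tmco5, the nearest gene of the highest site, had a score of 218.3 in MPs. The nearest 36 h peak, 318 bp away, scored 192.2 and the nearest 72 h peak, 326 bp away, scored 176.2. This site lay 100945 bp from the start of Tmco5 in intergenic sequence. Pold4, which encodes a small subunit of DNA polymerase delta, had a lost site 229 bp upstream of its transcription start site (TSS) with a score of 192.8, and the later peaks 270 bp and 267 bp away scored 155.2 and 168.9. At Mapkapk2, a kinase activated by p38, the MP peak scored 184.2, and the later peaks 190 bp and 197 bp away scored 112.3 and 139.5. Here the MP peak stood above its later neighbours by more than at Pold4.

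Mthfd1l, an enzyme of mitochondrial folate metabolism, followed with a score of 153.5, and its neighbours scored 100.5 and 95.4. Adap2, an Arf GTPase-activating protein, and Gm826 shared a score of 136.5. Ext1, a glycosyltransferase of heparan sulfate synthesis, stood at 129.6 and Tgm2, a transglutaminase, at 127.9. Ccr2, the chemokine receptor that marks inflammatory monocytes, had a lost site of 124.5 at 33623 bp upstream of its TSS, beside a 36 h peak of 69.5 and a 72 h peak of 104.3. Abl1, a tyrosine kinase, scored 121.1. Dusp1, a phosphatase of MAP kinases, and Gkn3 both scored 117.7. At Dusp1 the order was turned, since the later neighbours of 161.1 and 127.8 were higher than the MP peak. Of these 12 MP peaks, 4 lay in introns and 8 in intergenic sequence.

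**Figure D3:**
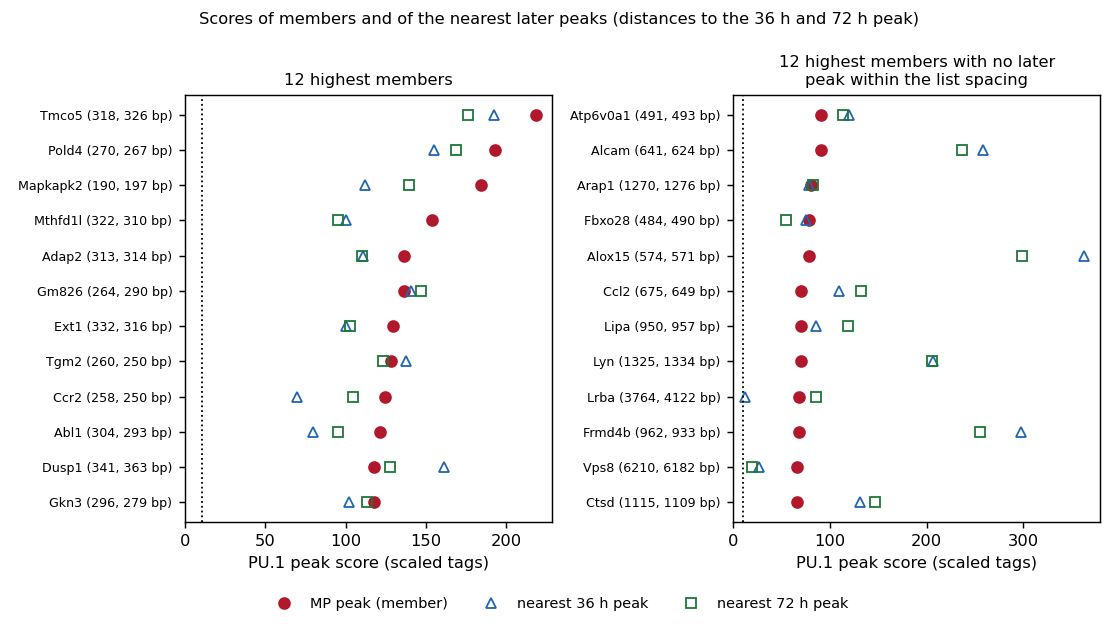
PU.1 scores (x axis, scaled tags) of the 12 highest lost sites (left) and the 12 highest isolated ones (right), each named by its nearest gene with the distance to its nearest 36 h and 72 h peak. Circles are MP peaks, triangles and squares the nearest later peaks and the dotted line the lowest later score of 10.3. At Vps8 both later peaks lie below the MP peak, and they are over 6 kb away.

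Among the isolated sites, which are named here after their values had been seen, Atp6v0a1 and Alcam were highest with a score of 90.4 each. Atp6v0a1 encodes a subunit of the vacuolar proton pump, and its site lay 650 bp upstream of the TSS, 491 bp from a 36 h peak of 119.7 and 493 bp from a 72 h peak of 113.1. Alcam, a cell adhesion molecule, had its site 641 bp from a 36 h peak of 258.7. The Atp6v0a1 site at 36 h was thus little over the list spacing of 444 bp. Arap1, an Arf GTPase-activating protein, followed with 80.2 at 1270 bp from a 36 h peak of 78.3. Alox15, a lipoxygenase, and Fbxo28 had 78.5 each, with a 36 h peak 574 bp and 484 bp away. Ccl2, the ligand of CCR2, had a site of 69.9 at 675 bp and 649 bp from later peaks of 109.4 and 132.2. Lyn, a Src-family kinase of myeloid cells, and Lipa, the lysosomal acid lipase, had sites of 69.9 in introns, with the nearest later peaks 1325 bp and 950 bp away.

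The sites named next lay farther from a later peak and had lower scores. Vps8 had an intronic site of 66.5, and the nearest later peaks, over 6 kb away, scored 26.6 and 19.1. Of the 361 sites with no later peak within 10 kb, the highest was near Rybp, a Polycomb-associated protein, with 59.7. Its nearest later peaks lay 13325 bp and 13348 bp away. Clec14a followed with 54.6, Scamp1 with 47.8 and Cd53, a tetraspanin of leukocytes, with 46.1. At Cd53 the site had 27 tags and the nearest peaks lay 29128 bp away at 36 h and 34003 bp away at 72 h. Ehf, itself an ETS-family gene, had a site of 42.6 at 171 bp upstream of its TSS, and the nearest later peaks were 51263 bp and 51243 bp away.

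The motif content of the peaks was not used to choose the sites. GAGGAAGT was present in 356 lost sites, or 15.1% (95% CI 13.7 to 16.6), in 24.8% of kept sites and in 23.5% of all MP peaks at the score of the rule. The difference of -9.75 percentage points (95% interval -11.2 to -8.2) covers counting error among sites and no error between cultures. It was -2.91 points at 10 to 11 tags, -6.38 at 12 to 14, -7.19 at 15 to 19 and -12.0 at 20 to 29, and the interval lay below 0 in each of these classes and at 30 to 49 tags (-14.6, -19.9 to -5.31). At 50 tags or more it was -11.2 and included 0 (-23.3 to 8.96). In windows of the same length 2000 bp downstream the motif was found at 0.93% of lost and 0.952% of kept sites. The GGAA core alone was in 98.5% of lost and 99.2% of all sites. The longer core GGAAGT was in 49.6% of lost, 64.5% of kept and 62.6% of all sites. The isolated sites gave 15.8% for GAGGAAGT.

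The ETS-IRF motif went the other way. It was present in 137 lost sites, or 5.79% (95% CI 4.92 to 6.81), and in 4.75% of all MP peaks at the score of the rule. The kept sites as a whole had 4.62%, and 2.86% when these were weighted to the tag classes of the lost sites. At 10 to 11 tags the share was 5.03% of lost against 1.99% of kept sites, a difference of 3.05 points (1.72 to 4.71). At 12 to 14 tags it was 6.12% against 2.24%, at 15 to 19 tags 4.58% against 3.29%, and at 20 to 29 tags 7.87% against 3.82% (difference 4.05, 1.3 to 8.04). The interval included 0 at 15 to 19 tags (-0.401 to 3.78) and at 30 to 49 tags (-2.99 to 8.17). At 50 tags or more the share was 26.1% of lost and 8.35% of kept sites (difference 17.7, 4.19 to 38.1). This class held 23 lost sites, and 21 of them had a later PU.1 peak within the list spacing. Its difference thus hardly bears on sites without a later peak beside them. Over all tags, sites with a close later neighbour held the motif in 3.23%. Isolated sites held the motif in 6.42% (122 of 1900). In the flanking windows it was at 0.338% of lost sites. A wider form, GGAA and GAAA with any 2 bases between them, was in 9.68% of lost, 7.64% of kept and 7.85% of all sites. The IRF repeat, GAAA and GAAA with the same gap, was in 3.85% of lost, 3.13% of kept and 3.21% of all sites (difference of lost and kept 0.716, -0.00685 to 1.58). These motifs overlap, since the wider form takes in every ETS-IRF match and each match holds a GGAA core.

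The 286 pairs of a lost site and its close 72 h neighbour allow the same comparison within a locus. The ETS-IRF motif was in 10 of the MP peaks (3.5%) and in 1 of the 72 h peaks (0.35%), and no pair had it in both. GAGGAAGT was in 35 MP peaks and in 49 of the 72 h peaks, of which 6 pairs had it in both. The highest lost sites with the ETS-IRF motif were those near Tmco5, Mapkapk2, Mthfd1l and Ext1. Of the 23 lost sites with 50 tags or more, 6 held it.

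Each later list was then treated in the same way, to see whether these features go with any site that 1 PU.1 list alone holds. At the same score, 1271 of 46447 peaks at 36 h (2.74%) and 1877 of 50607 peaks at 72 h (3.71%) were in no other PU.1 list. The ETS-IRF motif was in 0.865% of those 36 h sites and in 1.39% of those 72 h sites. The lost MP sites exceeded them by 4.93 points (3.82 to 6.01) and 4.41 points (3.33 to 5.51). Under 20 tags the differences were 4.34 and 4.2 points, at 20 tags or more 8.15 and 6.27, and each of these intervals lay above 0. GAGGAAGT was also less frequent in the sites of a single later list than in the sites of all 3 lists. Its share was 17.7% at 36 h and 16.4% at 72 h, and the lost sites differed from these by -2.65 points (-5.24 to -0.151) and -1.36 points (-3.58 to 0.84). At 20 tags or more the lost sites had 11.4%, compared with 17.9% at 36 h (difference -6.44, -12.6 to -0.679) and 15.9% at 72 h (-4.43, -9.17 to 0.46). Under 20 tags both intervals included 0 (-1.98, -4.86 to 0.771 at 36 h, and -0.892, -3.41 to 1.57 at 72 h). They also included 0 at 20 to 29 tags, and for isolated sites of all tags (-5.08 to 0.66 and -4.31 to 0.756).

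AP-1, the Fos and Jun dimer that RANKL induces, separated the times in another way. Its motif TGANTCA was in 10.3% of lost and 10.2% of all sites. Kept sites had 10.3% as a whole (difference 0.00537 points, -1.19 to 1.33) and 9.07% when weighted to the tag classes of the lost sites. The lost sites had more at 10 to 11 tags (difference 2.36, 0.329 to 4.67) and at 12 to 14 tags (2.28, 0.0152 to 4.93), and the interval included 0 in each class above. The motif was in 24.9% of the sites that the 36 h list alone held and in 4.05% of those that the 72 h list alone held. The lost sites thus lay 14.6 points below the 36 h sites (difference -14.6, -17.3 to -12.0) and 6.27 points above the 72 h sites (4.74 to 7.79).

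**Figure D4:**
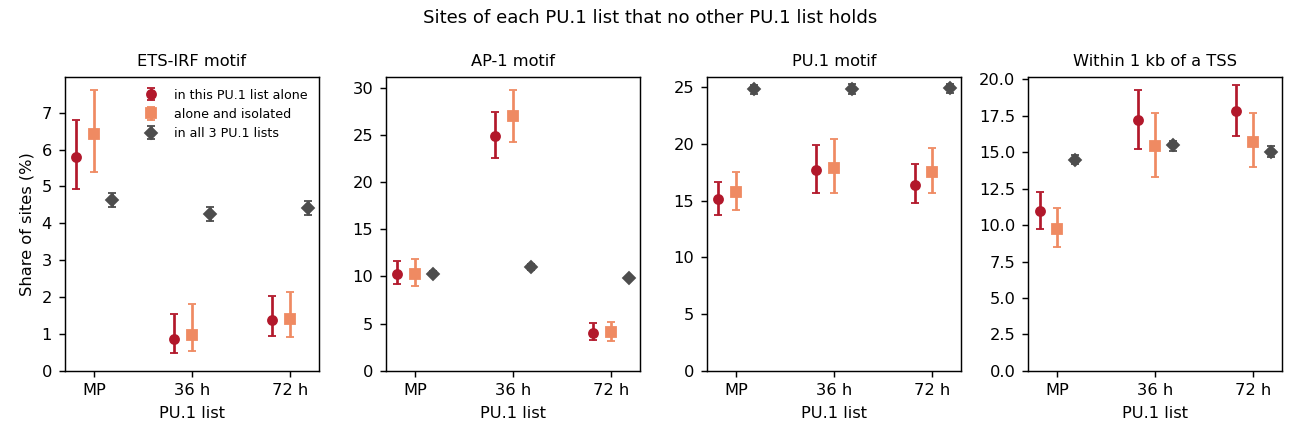
Share of sites (y axis, percent, 95% Wilson intervals) with an ETS-IRF, AP-1 or PU.1 motif or within 1 kb of a TSS, for the MP, 36 h and 72 h PU.1 lists (x axis). Circles are sites in that list alone, squares those that are also isolated and diamonds sites in all 3 lists. The ETS-IRF share of sites in 1 list alone is 5.79% in MPs, 0.865% at 36 h and 1.39% at 72 h.

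Lost sites were less often at promoters than kept sites. Within 1 kb of a GENCODE TSS lay 259 lost sites, or 11% (95% CI 9.76 to 12.3), against 14.5% of kept sites, a difference of -3.54 points (-4.79 to -2.18). Kept sites weighted to the same tag classes gave 16.7%. By tags the lost and kept shares were 10.6% and 18.1% at 10 to 11 tags, 11.5% and 17% at 12 to 14, 11.6% and 15.9% at 15 to 19, and 9.45% and 15% at 20 to 29. The interval of the difference included 0 for 30 to 49 tags (-7.62 to 6.96). At 50 tags or more 13% of the lost and 11.2% of the kept sites were near a TSS (difference 1.84, -6.69 to 20.9). Sites that the 36 h or the 72 h list alone held were near a TSS in 17.2% and 17.8%, which is more often than the lost sites by 6.2 and 6.84 points (differences -6.2, -8.68 to -3.83, and -6.84, -9.0 to -4.72).

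Farther out, 52.9% of the lost sites lay 10 kb or more from a TSS against 50.8% of the kept sites (difference 2.05 points, -0.0174 to 4.11). The median distance was 11211 bp against 10380 bp. Exons held 4.57% of the lost sites and 6.6% of the kept ones (difference -2.04, -2.84 to -1.09). Introns held 52.1% and 51.5%, and intergenic sequence 43.4% and 41.9%. The median GC content of the peak was 45.0% for lost and 47.7% for kept sites, and 44.4% and 45.0% in the flanking windows. The GC box GGGCGG, common in promoters, was in 2.79% and 4.47%, and in 4.25% of all sites (difference -1.68, -2.3 to -0.908). GC content and the distance to a TSS move together, and their separate parts in the motif shares were not tested. By chromosome the share lost ran from 3.42% on chromosome 19 to 5.55% on chromosome 14, with 4.83% on X.

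**Figure D5:**
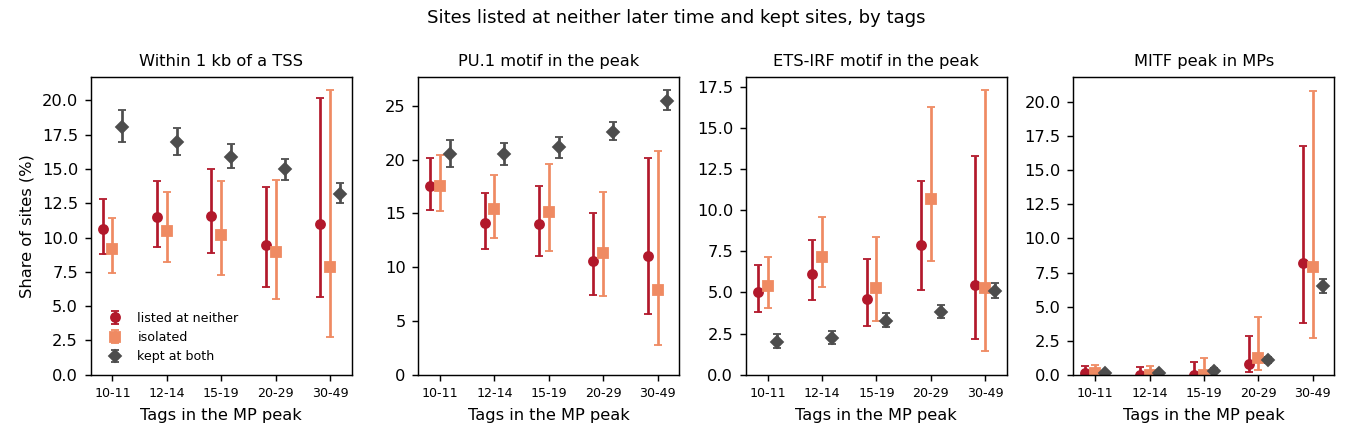
Share of sites (y axis, percent, 95% Wilson intervals) within 1 kb of a TSS, with a PU.1 motif, with an ETS-IRF motif and with a MITF peak in MPs, by the tags in the MP peak (x axis, 10 to 49 tags). Circles are lost sites, squares the isolated ones and diamonds kept sites. At 10 to 11 tags the TSS share is 10.6% of lost and 18.1% of kept sites and the ETS-IRF share is 5.03% and 1.99%.

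MITF was seldom listed at lost sites. In MPs 16 of the 2365 sites overlapped a MITF peak, or 0.677% (95% CI 0.417 to 1.1), where the share over all MP PU.1 peaks at the score of the rule was 10.3% and that of kept sites 12.1%. At 36 h the counts were 6 sites (0.254%) against 6.46% of all, and at 72 h 3 sites (0.127%) against 8.07% of all. MITF overlap depends strongly on the PU.1 tags. It was 0.0957% of kept sites at 10 to 11 tags, 1.05% at 20 to 29, 6.51% at 30 to 49 and 47.2% at 50 or more. At equal tags the intervals of the difference between lost and kept sites included 0. The shares were 0.787% and 1.05% at 20 to 29 tags (difference -0.264 points, -0.883 to 1.78), 8.22% and 6.51% at 30 to 49 (difference 1.7, -2.73 to 10.3), and 30.4% and 47.2% at 50 or more (7 of 23 lost sites, difference -16.8, -31.7 to 3.64). At this depth a lower MITF share of lost sites in MPs was therefore not detectable within these classes. At 72 h, 0 of 73 lost sites with 30 to 49 tags had one (difference from kept sites -6.28, -6.81 to -1.25), and 2 of 23 with 50 tags or more (-26.4, -32.8 to -8.32). At 36 h the difference at 50 tags or more was -21.2 (-27.5 to -3.07), and at 30 to 49 tags it was -2.27 and included 0 (-3.47 to 3.73). Of the 23 highest sites 21 had a close later PU.1 neighbour, and among isolated sites with 30 to 49 tags the interval at 72 h included 0 (-6.81 to 2.92). A MITF peak lay within 500 bp of 48 lost sites in MPs, 26 at 36 h and 27 at 72 h, of which 16, 11 and 8 were isolated. A wider window cannot give fewer sites than the overlap. The same count was not made for kept or for all sites, so these numbers have no comparison. Of the lost sites 0 overlapped an IgG peak, which allows a share of up to 0.162%, and 3 of all 51257 MP peaks (0.00585%) did, too few to set the lost sites apart.

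The 16 sites with MITF in MPs had MITF scores from 9.3, the lowest of that list, to 17.7. The highest was at Ccr2 with 17.7, and neither later MITF list held it. Rab31, a small GTPase of vesicle traffic, followed with 15.6 in MPs and 10.3 at 72 h. Pold4, Slc35a5 and Limd1 each had 14.5 in MPs. Slc35a5 had a MITF peak of 10.7 at 36 h and Pold4 had none later. Of the 16 sites, 5 had a MITF peak at 36 h and 2 at 72 h, and 7 were isolated. Among kept sites with MITF in MPs, 47.2% had a MITF peak at 36 h and 53.5% at 72 h. Dusp1 had a MITF peak at 72 h alone, with a score of 10.3.
Rab31, MP peak, chr17:66120400-66120550, plus strand: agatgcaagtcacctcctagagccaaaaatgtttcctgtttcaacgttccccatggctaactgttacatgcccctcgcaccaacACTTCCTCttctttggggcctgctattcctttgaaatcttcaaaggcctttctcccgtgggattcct
Limd1, MP peak, chr9:123371045-123371195, plus strand: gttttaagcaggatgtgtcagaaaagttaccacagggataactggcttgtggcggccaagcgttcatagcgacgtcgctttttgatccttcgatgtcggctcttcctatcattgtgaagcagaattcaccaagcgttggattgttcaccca
Both sites are shown because MITF was listed there in MPs and again at 72 h. Rab31 has a GAGGAAGT match on its minus strand. Limd1, a scaffold protein of the LIM family, had a PU.1 score of 34.1 in MPs and no PU.1 peak within 7606 bp later, but its MITF scores were 14.5 in MPs, 24.3 at 36 h and 19.4 at 72 h. The central 31 bases of this site had 1 exact match in mm9. Inexact copies and copies missing from the assembly were not counted, so this does not show that the site is unique. Whether reads from such copies add to its PU.1 or MITF scores was not tested. At Esr1, the estrogen receptor gene, also named after its values had been seen, the MITF score was 9.3, the lowest of the list, in MPs and 255 at 36 h in a peak 960 bp wide, and none was listed at 72 h. The Esr1 MP peak repeats a short unit with aagtcctc along its sequence, and what this does to the MITF score was not tested. MITF peaks at 36 h were usually 150 bp wide but reached 1387 bp, while those in MPs and at 72 h were all 150 bp. The MITF values rest on 1 library each.

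The lost sites were assigned by the authors to 1969 genes, of which 1659 had 1 lost site, 243 had 2, 49 had 3, 17 had 4 and 1 had 5. These are 15% of the 13101 genes named by an MP peak at the score of the rule. Most of them kept PU.1 elsewhere. At 72 h, 1899 of the 1969 genes (96.4%, 95% CI 95.5 to 97.2) were named by a peak, compared with 99% of all 13101 genes. The 36 h list was annotated with another set of transcripts, without predicted ones, so gene names were not compared at 36 h.

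Tet2, the DNA dioxygenase often mutated in myeloid leukemia, had the most lost sites. It had 5 with scores from 17.1 to 35.8, 3 of them isolated, beside 15 kept sites among its 23 MP peaks. Alcam had 4 isolated sites from 17.1 to 90.4 and 23 kept ones. Klf7, a Krüppel-like factor, had 4 isolated sites up to 51.2 and 14 kept ones. Kctd12 had 4 up to 71.6. A predicted transcript without a gene symbol, XM_975983, also had 4, with 25 of its 32 MP peaks kept. In each of these genes more sites were kept than lost.

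Genes of OC function and differentiation were the list of most interest for this system. Of 20 such genes with MP peaks, 8 had a lost site (40%, beside 15% of all genes), and 11 of their 166 MP peaks were lost. This is 6.63% (95% CI 3.74 to 11.5) beside 4.61% of all MP peaks, and 141 of the 166 were kept. Lost and isolated were 5 of the 166, beside 3.71% of all MP peaks at the score of the rule. The gene for MITF had 4 lost sites in introns with scores of 40.9, 37.5, 34.1 and 23.9. The first 3 had a later PU.1 peak within 446 bp, with 36 h scores of 51.7, 37 and 69.5. The last was isolated. Oscar, an immune receptor that co-stimulates OC formation, had an isolated site of 30.7 at 5468 bp from its TSS. Dcstamp, which OCs need to fuse, was assigned a site of 25.6 at 136959 bp from its TSS, and the nearest GENCODE TSS was that of Rims2. A 72 h peak of 19.1 lay 251 bp from this site and a 36 h peak of 122.7 lay 2145 bp away. Ctsk, the collagen-degrading protease of OCs, named after its values had been seen, lost a peak of 20.5 (12 tags) 378 bp upstream of its TSS, and PU.1 peaks of 44.3 at 36 h and 45.5 at 72 h lay 1050 bp and 1068 bp away.

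Inhibitors of OC differentiation showed a like share, with 11 of 200 MP peaks lost (5.5%, 3.1 to 9.58) in 6 of 13 genes (46.2%). Of these 11 lost peaks 10 were isolated, where the genes of OC function had 5 of 11 and all lost sites 1900 of 2365. Lost and isolated were 10 of the 200 MP peaks of inhibitors, beside 3.71% of all MP peaks at the score of the rule. Both gene lists held many MP peaks per gene, so the shares of peaks are the closer comparison. Rbpj, the DNA-binding effector of Notch signaling, had a site of 39.2 beside later peaks of 50.3 and 60.2, and an isolated site of 23.9 at 56 bp upstream of its TSS. Id2, an inhibitor of basic helix-loop-helix factors, had 3 isolated sites of 27.3, 23.9 and 20.5. The first lay 451 bp from a 36 h peak of 35.5, little over the list spacing of 444 bp. The sites of 23.9 and 20.5 lay 126498 bp and 145661 bp from the TSS of Id2. Runx1, a factor of early hematopoiesis, had 3 isolated sites of 27.3, 22.2 and 17.1, the first of them 126772 bp from its TSS.

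The other lists were lost at similar shares, and the interval of every list given here included 4.61%. Macrophage genes lost 7 of 152 peaks (4.61%), among them Mrc1, the mannose receptor (29), Marco, a scavenger receptor (27.3), and Maf (22.2). Monocyte genes lost 2 of 91 (2.2%), of which the site at Ccr2 was the higher. Granulocyte genes lost 2 of 41 (4.88%), at S100a8 (20.5) and at Ctsg, a neutrophil protease, whose site of 18.8 had no later PU.1 peak within 49687 bp. Stem and progenitor genes lost 5 of 75 (6.67%), at Erg (30.7), Cd34 (22.2), Kit (22.2 and 18.8) and 1 more gene. Dendritic cell genes lost 2 of 68 (2.94%), both at Tcf4. B cell genes lost 2 of 36 (5.56%), at Blnk (27.3) and Cd72 (20.5). T and NK cell genes lost 2 of 45 (4.44%), at Ets1 and Gata3 with 22.2 each. Toll-like receptor and interferon genes lost 5 of 125 (4.0%), at Ifih1 and Il1b with 18.8 and at 3 genes with 17.1. The sites named at Maf, Kit and Gata3 lay more than 100 kb from the TSS of these genes. The sites named at Maf and Erg had a later PU.1 peak within the list spacing.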

How the data were processed

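The authors mapped reads to mm9 with Bowtie2, called peaks with HOMER and deposited 1 peak list per library (7 lists). The deposited score of a peak is its tag number scaled to a common library size. CASAVA 1.8 is also named in the submitters' processing notes. Versions of the other tools and the peak calling settings are not given in the sources used here. The lists carry the nearest RefSeq transcript. Symbols were matched by accession for 1787 of the 1969 transcripts of lost sites.

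Tags per peak were recovered by dividing scores by the value of 1 tag. Peaks overlapped when they shared 1 bp, both ends included. TSS distances, exons and introns are from GENCODE on mm9 at the peak center. One peak ran past the end of chromosome 19. Motifs were searched on both strands of the 151 bases around the center. Shares carry 95% Wilson intervals and differences 95% Newcombe intervals, which cover counting error only and treat sites as independent. With 1 library per condition no test was possible. The overlap and distance steps were checked on simulated peaks, and the Newcombe interval was checked against a published example. The named genes are those of the 12 highest sites, the 5 genes with most lost sites, up to 3 per gene list and the 5 highest MITF scores with the sites that had MITF at 72 h. Members and lists were chosen with earlier results of these data known. The close neighbours, the tag classes above 20, GGAAGT, the wider ETS-IRF form, the comparison with sites of the other lists and the isolated genes named were added after seeing the data. Python 3.11.15, pandas 2.3.3, scipy 1.17.1 and matplotlib 3.10.9 were used. Some genes of the lists are not reported here.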

Additional observations from a re-analysis of the deposited data

How the results depend on the processing

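The number of lost sites depended on the thresholds by construction. It was 1451 at 2 times the lowest MP score, 350 at 2 times the score of the rule, 11369 without a threshold, 9087 when later peaks counted only at 2 times the lowest score of their list, and 6365 or 3986 when the 36 h or the 72 h list alone was used. Other ways to match peaks gave 1658 to 2597 sites. Sites within 1 kb of a TSS made up 8.38% when a later peak within 500 bp counted as present and 9.74% for isolated sites, an alternative chosen after seeing the data. The share 10 kb or more away was 59.4% with protein-coding genes only. MITF overlap was 0% with MITF peaks of at least 2 times the lowest score, 4.29% at 2 times the score of the rule, 0.181% with the 500 bp limit and 0.368% for isolated sites. The PU.1 motif share was 13.4% with the window halved, 98.5% for GGAA and 11.4% at 2 times the score of the rule. With the nearest GENCODE gene, 93.7% of genes had another peak at 72 h. Apart from the settings that change what is counted, the cause was not tested. No paired analysis was possible because every condition had 1 library. Scores near 10 tags limit what can be said of a single site. Repeats were not analysed here beyond exact matches of the central 31 bases.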

Other observations

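Of the 1969 genes with a lost site, 70 were named by no PU.1 peak at 72 h. The highest of their sites with a gene symbol, named here after their values had been seen, were near Ifna13, an interferon alpha gene (39.2), Has3, a hyaluronan synthase (35.8), Cblif, the gastric intrinsic factor (34.1), Mrgpra1 (32.4) and Tjp3, a tight junction protein (30.7). The site of Tjp3 lay 497 bp upstream of its TSS, and PU.1 peaks of 23.7 at 36 h and 32.3 at 72 h lay 1008 bp and 1025 bp away. The site of Ifna13 had a 36 h peak of 10.3 at 5743 bp and a 72 h peak of 11.7 at 27143 bp.

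The C/EBP motif TTGCNNAA was in 8.75% and 8.81%, the RUNX motif TGTGGT in 15.1% and 14.1%, the E-box CACGTG in 2.28% and 2.55% and the MITF-type M-box TCATGTG in 4.06% and 3.67%, and each interval of the difference included 0. By tags, the RUNX motif was more frequent in lost sites at 12 to 14 tags (16.3% and 12.7%, difference 3.64, 0.904 to 6.72) and at 15 to 19 tags (20% and 13%, difference 6.98, 3.32 to 11.2), and the interval included 0 in the other classes. It was also above its share in the sites that the 36 h list alone (difference 2.86, 0.496 to 5.12) or the 72 h list alone held (2.94, 0.85 to 4.99). At 20 tags or more both intervals included 0 (-3.21 to 8.44 and -2.03 to 7.98), and under 20 tags neither did. For isolated sites the interval included 0 against the 36 h sites (-0.78 to 4.52) and not against the 72 h sites (1.39 to 5.99). Over all MP peaks at the score of the rule these motifs were in 8.91%, 14.2%, 2.5% and 3.71%. The C/EBP motif was in 5.11% of the sites that the 36 h list alone held, 3.64 points below the lost sites (1.91 to 5.26).

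The central 31 bases matched more than 1 place in mm9 at 71 lost sites, or 3.0% (95% CI 2.39 to 3.77), and at 1.78% of kept sites (1.66 to 1.91). Another MP peak lay within 1 kb of 27.1% of the lost sites and 16.1% of the kept ones. For sites with a close later neighbour this share was 45.6%, and for isolated sites 22.6%.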
